A study of Mus musculus with 6 samples.

Results

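The miR-126 arms are the mature microRNAs (miRNAs) cut from the precursor in an intron of Egfl7 and from its antisense partner. They were taken from the tables of mature miRNA counts as every reference named mmu-miR-126, with or without a letter, and ending in -3p or -5p. This rule found 3 of the 911 mature references listed in at least 1 library: miR-126a-3p, miR-126a-5p and miR-126b-3p. None was a joint entry with another miRNA, and miR-126b-5p was listed in no library. The libraries were small RNA sequencing of macrophages grown from bone marrow, 3 from ApoE-KO (EKO) and 3 from wild-type (WT) mice, and the series design calls the replicates biological. All mice were male and 6 to 12 weeks old. All cultures received recombinant murine M-CSF at 25 ng/mL, renewed at intervals of 2 days over 6 days, in medium with 10% serum. The labels give neither the strain nor the ApoE allele, and small RNA libraries hold no measure of the Apoe transcript by which to check the genotype. The series set out to learn how loss of apolipoprotein E, a lipid carrier that macrophages secrete, alters their miRNAs.

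A miRNA precursor folds into a hairpin from which Dicer cuts a duplex, and usually 1 strand of it, the guide, is kept by an Argonaute protein while the other, the passenger, is degraded. The guide pairs with target transcripts mainly through its seed. miR-126-3p is best known from endothelial cells, where its host gene Egfl7 is active and where it represses Spred1 and Pik3r2, brakes on growth-factor signalling, and, in human cells, the adhesion molecule VCAM1. It is also found in haematopoietic stem cells, megakaryocytes and platelets. The 5p arm, long called miR-126*, represses Dlk1 in endothelial cells and has been studied in mouse atherosclerosis.

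The precursor sequences are shown because the members overlap each other on opposite strands. In GRCm38.p6, the build of the RefSeq sequences used here, the Mir126a hairpin lies on the plus strand at chr2:26591357-26591429. Egfl7, on the same strand, spans chr2:26580014-26593120 in GENCODE M21. The hairpin lay inside an intron of 8 of the 19 annotated Egfl7 transcripts, in an exon of 1 transcript annotated as a retained intron, and outside the span of 10. In the transcript Egfl7-201 it is in intron 7 of 9, which is 600 bases long, with 234 bases between the hairpin and the next exon. The deposited counts were made on mm9, and these positions were not used to count. In both hairpins, printed 5′ to 3′, capitals mark the mature arms in the RefSeq table.
Mir126a hairpin: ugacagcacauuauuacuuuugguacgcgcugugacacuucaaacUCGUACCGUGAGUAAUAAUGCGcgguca
Mir126b hairpin: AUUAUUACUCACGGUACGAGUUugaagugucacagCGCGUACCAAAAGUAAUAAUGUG

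The Mir126b hairpin, chr2:26591363-26591420 on the minus strand, is the exact reverse complement of bases 7 to 64 of the 73 bases of the Mir126a hairpin. miR-126b-5p covers 19 of the 22 positions of miR-126a-3p on the other strand. miR-126b-3p covers none of them. Reads of the 2 hairpins thus differ in strand and sequence, and for all members the total and the multimap-adjusted counts were equal in each library. In a fold predicted by RNAfold, 19 of the 22 bases of miR-126a-3p were paired.

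The mature sequences show what each member could pair with; here capitals mark the seed, bases 2 to 8.
miR-126a-3p: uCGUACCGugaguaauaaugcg
miR-126b-3p: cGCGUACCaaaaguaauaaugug
miR-126b-5p: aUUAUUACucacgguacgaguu

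RefSeq sequences were matched for 3 of the 4 names, and not for miR-126a-5p. No 2 of the 3 share a seed, though those of miR-126a-3p and miR-126b-3p are alike when shifted by a base. Among the 1679 mature mouse names in that table no other name had the seed of any of them, so no seed family was added to the values below.

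The libraries held between 34651537 and 39532569 reads on mature miRNAs in EKO and between 38440317 and 41331629 in WT. The EKO libraries listed 543, 577 and 591 mature references, and the WT libraries 686, 668 and 698. No molecular barcodes were counted, so PCR copies remain, and the floors and intervals given for single libraries cover counting error only. Ligation in small RNA kits favours some sequences, so levels of different miRNAs within a library, ranks included, are only roughly comparable. Of the macrophage and myeloid miRNAs 11 of 11 were listed, which needs reads in only 1 library. So were 7 of 7 epithelial and 5 of 5 lymphoid miRNAs, so being listed does not check the cell type label. The 11 macrophage and myeloid miRNAs summed to between 144234 and 172811 CPM in EKO and between 217442 and 230300 CPM in WT, most of it miR-21a-5p. CPM is reads per 1000000 reads on mature miRNAs of the library, without further scaling unless stated. Of the 11, 2 had higher and 9 lower values in EKO. Their median log2 fold change was -0.50, against -0.16 over all 575 miRNAs tested. In the edgeR test across all miRNAs described below, 0 of the 11 passed, as did 0 of all 575 (0.0%). miR-21a-5p averaged 151400 ± 13400 CPM in EKO, against 217900 ± 7114 CPM in WT. The arms of miR-223, the classic myeloid miRNA, leaned opposite ways: miR-223-5p averaged 2761 ± 107 CPM in EKO, against 2042 ± 106 CPM in WT, and miR-223-3p 257 ± 27.6 CPM in EKO, against 405 ± 99.6 CPM in WT. miR-22-3p averaged 1145 ± 181 CPM in EKO, against 1591 ± 202 CPM in WT (SD, with 3 libraries a group throughout). The arms of miR-511, from an intron of the mannose receptor gene Mrc1, were scarce in both genotypes. miR-511-5p stood at 1.62, 0.0759 and 0.378 CPM in EKO, against 4.53, 6.73 and 6.04 CPM in WT, with an adjusted p of 0.189 (edgeR). miR-511-3p stood at 0, 0 and 0.674 CPM in EKO, against 0.442, 0.532 and 1.37 CPM in WT, and its groups overlapped.

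The guide arm miR-126a-3p was present in every library and carried nearly all reads of the locus. It had 2240, 2891 and 2493 reads in the EKO libraries, and 3055, 3153 and 3179 reads in the WT libraries. As levels these were 64.6, 73.1 and 67.2 CPM in EKO, and 79.5, 76.3 and 77.7 CPM in WT. On this scale every EKO value was under every WT value. The EKO mean was 68.3 ± 4.35 CPM, against a WT mean of 77.8 ± 1.60 CPM (SD, n = 3 each), so that EKO stood at 87.8% of WT. The two-sided exact permutation p was 0.1, the smallest that 3 against 3 allows. It had more reads than 74.8%, 76.8% and 76.5% of the references listed in the EKO libraries, and than 81.6%, 81.1% and 81.4% of those in the WT libraries, which listed more references.

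**Figure D1:**
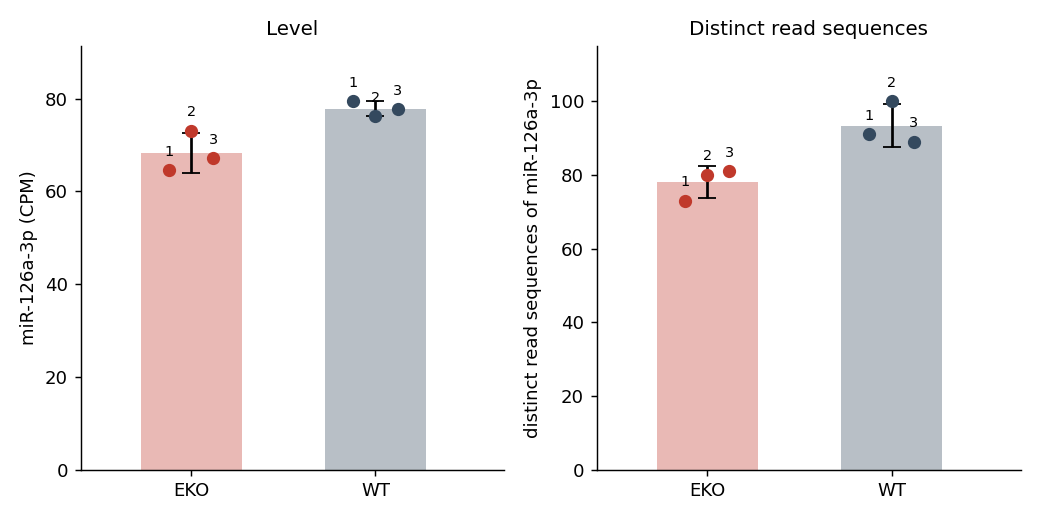
Left, CPM of miR-126a-3p, and right, its number of distinct read sequences; points are libraries with their replicate number, bars group means and error bars SD (n = 3). The EKO libraries sit between 64.6 and 73.1 CPM and 73 and 81 sequences, and the WT libraries between 76.3 and 79.5 CPM and 89 and 100 sequences.

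The genotype difference of miR-126a-3p did not pass the test across all miRNAs. Its log2 fold change was -0.16 ± 0.16 (SE; 95% interval -0.54 to 0.22) and its adjusted p 0.749 (edgeR's quasi-likelihood F test across 575 miRNAs, Benjamini-Hochberg). That value is itself the median of the 575: miR-126a-3p ranks 288th from the lowest fold change, and 273rd by p. Across all tested miRNAs 242 had higher and 333 lower values in EKO. The interval does not reach a change of 2-fold in either direction. No miRNA passed an adjusted p of 0.05 (0.0%), while 123 (21.4%) had an unadjusted p under 0.05. DESeq2 called 92 (16.0%) and limma-voom 32 (5.57%), and edgeR called 45 (7.10%) without EKO replicate 3. miR-126a-3p was in none of these sets of calls, with adjusted p of 0.903, 0.577 and 0.753.

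The separation of the groups depended on how the libraries were scaled. With TMM factors, which edgeR uses, miR-126a-3p stood at 69.0, 72.2 and 65.7 CPM in EKO, and at 78.8, 78.3 and 74.1 CPM in WT. The groups did not overlap on that scale, a state shared by 108 (18.8%) of the tested miRNAs with EKO below WT; on plain CPM it was 102 (17.7%). With DESeq2 size factors the values were 70.8, 76.7 and 65.8 CPM in EKO, and 76.2, 77.7 and 70.8 CPM in WT. With upper-quartile factors they were 68.4, 80.3 and 60.6 CPM in EKO, and 78.7, 76.3 and 74.8 CPM in WT. The groups overlapped under both of these. The log2 fold change was -0.08 with DESeq2 size factors and -0.13 with upper-quartile factors, where the median of all tested miRNAs was -0.08 and -0.14.

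**Figure D2:**
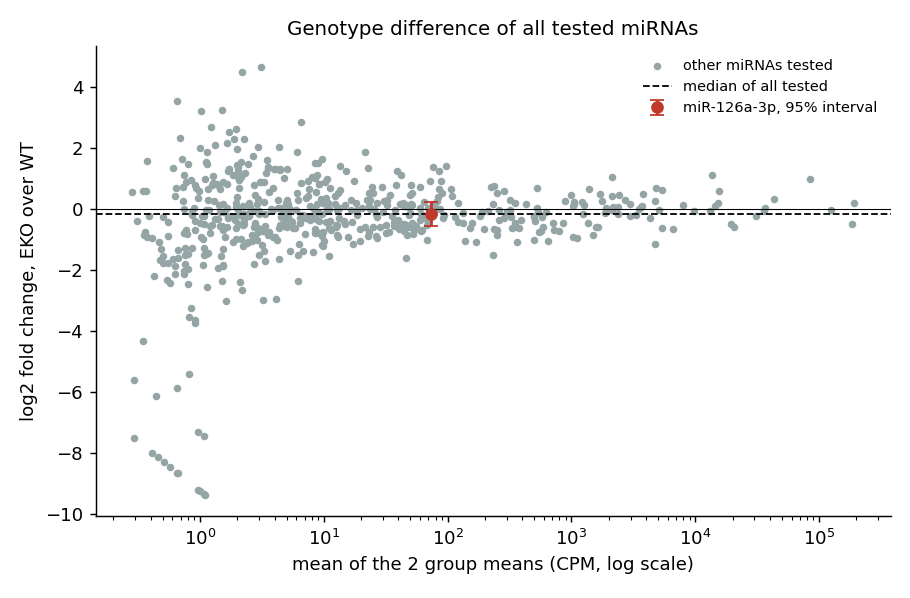
Log2 fold change, EKO over WT, of the 575 tested miRNAs (edgeR) against the mean of the 2 group means in CPM on a log scale; the dashed line is their median and the error bar the 95% interval of miR-126a-3p. miR-126a-3p lies on the median at -0.16, and its interval of -0.54 to 0.22 includes 0.

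The reads of miR-126a-3p were spread over many distinct sequences, which in such data include forms with trimmed, extended or altered ends and sequencing errors. There were 73, 80 and 81 distinct sequences in EKO, and 91, 100 and 89 in WT. Again no EKO value reached the lowest WT value; the means were 78.0 ± 4.36 in EKO, against 93.3 ± 5.86 in WT (SD, n = 3 each; two-sided exact permutation p = 0.1). This was common: for 187 of the 575 miRNAs (32.5%) the EKO libraries held fewer distinct sequences than every WT library. The mean number for miR-126a-3p in EKO was 83.6% of that in WT, and over all mature miRNAs together it was 83.0%. Each distinct sequence of miR-126a-3p had on average 30.7, 36.1 and 30.8 reads in EKO, and 33.6, 31.5 and 35.7 in WT, and these groups overlapped (exact permutation p = 0.6). Among the 20 miRNAs nearest to it in mean reads, between 6 and 8 had fewer reads per sequence in each EKO library and between 8 and 11 in each WT library. By this measure miR-126a-3p stood in the middle of miRNAs of like count.

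The arms differ in sequence, so the ligation bias named above bears on their ratio too. Strand choice was not measured apart from that bias. In these reads the arm taken as the passenger, miR-126a-5p, was all but missing. It had 0 reads in EKO replicates 1, 2 and 3, and 18, 0 and 0 reads in WT replicates 1, 2 and 3. The 18 reads came from 2 distinct sequences and amounted to 0.468 CPM. A count of 0 allows up to 3 reads per library, which is 0.0866, 0.0759 and 0.0809 CPM in the EKO libraries and 0.0726 and 0.0733 CPM in WT replicates 2 and 3. In WT replicate 1 the 5p arm made up 0.586% of the reads of both arms (95% exact binomial interval 0.348% to 0.924%). In the other libraries 0 of the reads allows a share of up to 0.134%, 0.104% and 0.120% in EKO replicates 1, 2 and 3, and up to 0.0952% and 0.0944% in WT replicates 2 and 3. The 3p arm thus outnumbered the 5p arm 170-fold in WT replicate 1, and at least 747-fold, 964-fold and 831-fold in the EKO libraries and 1051-fold and 1060-fold in WT replicates 2 and 3, against a floor of 3 reads per library. A genotype difference of the 5p arm was not detectable at this depth, and with reads in 1 library the low-count filter left it out of the test.

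References seen in a single library were common. In all, 169 of the 911 mature references were listed in 1 library, 10, 14 and 16 of them in EKO replicates 1, 2 and 3 and 41, 40 and 48 in WT replicates 1, 2 and 3. The median read count of such references was 22 in WT replicate 1, where miR-126a-5p had its 18 reads, and 28 of those 41 had at least 18 reads. A count of this size therefore occurred beside many others like it, and the number of molecules behind it is not known from the files.

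The log2 ratio of the 5p over the 3p arm, each with 1 CPM added, was -6.04, -6.21 and -6.09 in EKO, and -5.78, -6.27 and -6.30 in WT. Only WT replicate 1 stood apart, through its 18 reads. The mean ratio was -6.11 ± 0.09 in EKO, against -6.12 ± 0.29 in WT (SD, n = 3 each), a difference of 0.0020 with a two-sided exact permutation p of 1.0. Where the 5p arm is at 0, this ratio follows the 3p level and the added value, and it is no measure of the passenger strand. Without WT replicate 1 the difference was 0.17 (exact permutation p = 0.2), and with 0.1 CPM added in place of 1 CPM it was -0.65.

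The share of the 5p arm was small among hairpins of like abundance with both arms listed, and its place rests on few reads. Both arms were listed under the same name for 249 hairpins, and the 3p arm had more reads in 120 and the 5p arm in 129. Over the 6 libraries miR-126a had 17011 reads on the 3p arm and 18 on the 5p arm, so the lesser arm took 0.106% of the reads of both. The median over the 249 was 9.70%, and 18 (7.23%) had a smaller share than miR-126a. A more abundant guide makes a small share measurable, so hairpins of like level are the closer comparison. Of the 26 pairs, miR-126a among them, whose greater arm lay within 2-fold of miR-126a-3p in reads, the median share was 8.37%. There miR-467c (0.0572%) and miR-542 (0.0884%) were below miR-126a. Those shares rest on 5 reads of the lesser arm for miR-467c and 10 for miR-542. The 18 of miR-126a all came from WT replicate 1, so the order among these hairpins is not settled. Of the 76 pairs whose greater arm had at least as many reads, the median was 1.11%, and 15 (19.7%) were below it. These pairs leave out 282 names with 1 arm listed, a state that miR-126a itself had in 5 of 6 libraries. Of those names 14 lay within 2-fold of miR-126a-3p in reads and had no other arm under any entry, such as miR-143-3p, miR-298-5p, miR-122-5p and miR-100-5p. A count of 0 over the 6 libraries allows them a share of up to 0.00928% to 0.0343%, below that of miR-126a, though whether their other arm was among the references counted is not known. With these names, 16 of 39 other hairpins of like level would be more one-sided than miR-126a. Of the 16, 14 were taken for having no other arm listed, so their place was fixed by that choice and the count is no measure of it.

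**Figure D3:**
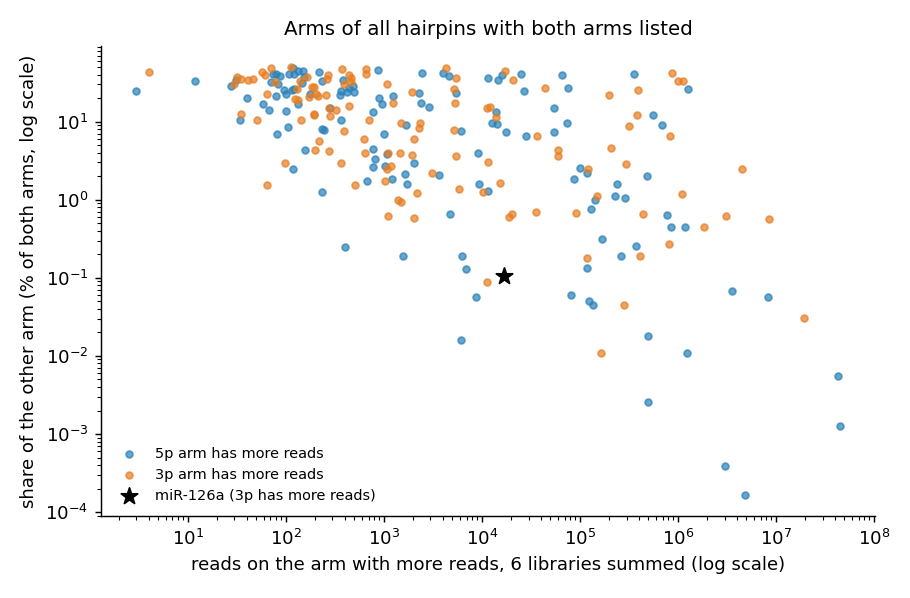
Share of the lesser arm in the reads of both arms against reads on the greater arm, both on log scales and summed over the 6 libraries, for the 249 hairpins with both arms listed; colours show which arm has more reads. miR-126a, the star, has a share of 0.106% at 17011 reads, against a median of 8.37% over the 26 pairs of like abundance; names with 1 arm listed are not drawn.

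The arm ratios of other hairpins were compared between genotypes on the same log2 scale. With each arm averaging at least 1 CPM, 98 pairs entered the test, and miR-126a did not, because of its 5p arm. None passed an adjusted p of 0.05 (limma, 0.0%), while 25 (25.5%) had an unadjusted p under 0.05. Without EKO replicate 3 there were 11 calls among 96 pairs. The pairs with the smallest p were miR-331, miR-872 and miR-7012. The log2 ratio of miR-331 averaged 1.13 in EKO and -0.26 in WT, a difference of 1.39 ± 0.26 (SE). That of miR-872 averaged 3.01 in EKO and 4.41 in WT (-1.40 ± 0.28), and that of miR-7012 averaged -1.44 in EKO and 0.61 in WT (-2.05 ± 0.46). Each of the 3 had an adjusted p of 0.118 (limma). In a fit over all 249 pairs with no filter, miR-126a had an adjusted p of 0.998 (limma).

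The antisense arms were at or near the limit of detection. miR-126b-3p had 0 reads in the 3 EKO libraries, and 0, 7 and 0 reads in WT replicates 1, 2 and 3. The 7 reads were copies of 1 sequence and amounted to 0.169 CPM, against floors of 0.0759 to 0.0866 CPM in the EKO libraries. Of the 40 references listed in WT replicate 2 alone, 31 had at least 7 reads. miR-126b-5p was listed in none of the 6 libraries. The arms together summed to 68.3 ± 4.35 CPM in EKO, against 78.0 ± 1.77 CPM in WT (SD, n = 3 each; two-sided exact permutation p = 0.1), of which miR-126a-3p was all in EKO and nearly all in WT.

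miR-126a-3p varied little between libraries. Over all 6 its coefficient of variation, the SD as a percentage of the mean, was 8.16% on plain CPM. The median was 25.6% over the 251 miRNAs averaging at least 10 CPM, of which 19 (7.57%) had a smaller one. Of the 69 miRNAs within 2-fold of its mean level, 2 had a smaller one. The coefficient takes both genotypes together, so a difference between them adds to it, and spread within a genotype was not compared. The place of miR-126a-3p in the order by mean level was 132nd, at 73.1 CPM with a range of 64.6 to 79.5 CPM. Just above it stood miR-1843b-3p at 76.1 CPM (29.9 to 160), miR-330-3p at 76.3 CPM (55.1 to 111) and miR-32-5p at 76.6 CPM (52.6 to 95.2). Just below it stood miR-704 at 71.5 CPM (29.9 to 103), miR-15b-5p at 69.2 CPM (32.9 to 96.1) and miR-100-5p at 69.2 CPM (54.5 to 78.0). The ranges of all 6 neighbours overlapped that of miR-126a-3p, so this order is not settled beyond the spread between libraries. Of the 6, miR-1843b-3p (log2 fold change 1.39 ± 0.37, adjusted p = 0.0828, edgeR) and miR-704 (0.93 ± 0.31, adjusted p = 0.125, edgeR) had all EKO libraries above all WT libraries, as did 12.5% of all tested miRNAs with TMM factors, without passing the test.

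**Figure D4:**
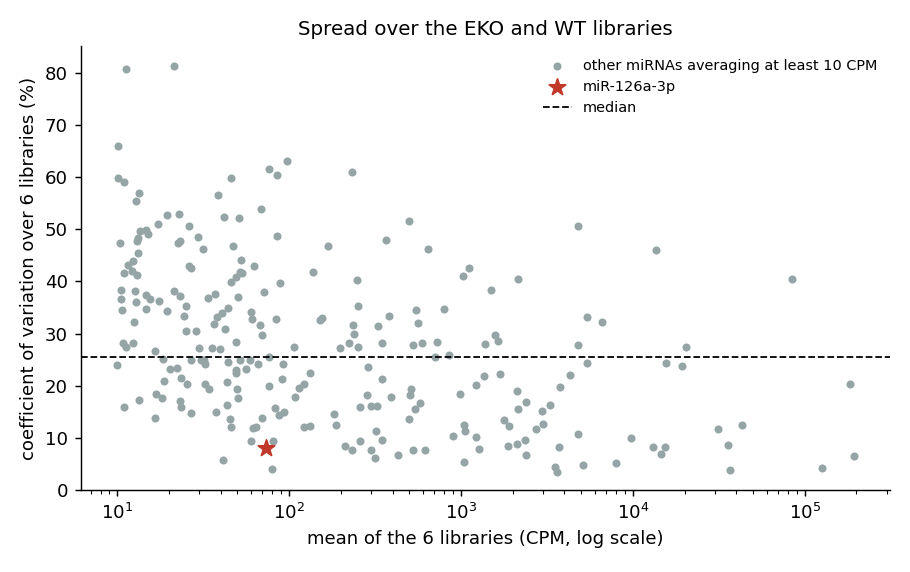
Coefficient of variation over the 6 libraries against mean CPM on a log scale for the 251 miRNAs averaging at least 10 CPM; the dashed line is the median. miR-126a-3p, the star, has 8.16% at 73.1 CPM, below the median of 25.6%.

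The miRNAs whose levels varied most like miR-126a-3p were found by Pearson's r of log2(CPM + 1) over the 6 libraries among those averaging at least 10 CPM. The 5 highest of 250 were miR-19b-3p (r = 0.953), miR-152-3p (r = 0.942), miR-125b-5p (r = 0.912), miR-374b-5p (r = 0.889) and miR-1983 (r = 0.885), and the median of the 250 was 0.279. These values describe 6 libraries that share 2 genotypes and 6 depths. Leaving out EKO replicates 1 and 3, the farthest of the 6 from the median of miR-126a-3p, r was 0.882, 0.981, 0.890, 0.840 and 0.731 in the same order. EKO replicate 2 was then the only EKO library, with the lowest level of each of the 5. These values thus still include the difference between genotypes. Spearman's rho over the 6 libraries lay between 0.886 and 1.0. The libraries thus stood in a like order, while the size of the differences was not alike. miR-19b-3p, a guide of the miR-17-92 polycistron, stood at 16.2, 29.1 and 22.0 CPM in EKO and at 67.1, 57.9 and 84.2 CPM in WT. miR-152-3p, which lies within Copz2, stood at 202, 238 and 237 CPM in EKO and at 318, 280 and 283 CPM in WT. miR-125b-5p, a miRNA of stem cells and macrophages, stood at 129, 163 and 168 CPM in EKO and at 242, 219 and 270 CPM in WT. In all 5 the EKO libraries lay below the WT libraries on plain CPM, as for 17.7% of all tested miRNAs; having been picked for likeness to a miRNA with that order, they give it no weight. Their log2 fold changes ran from -1.61 to -0.35 against its -0.16. None of the 5 passed the test (adjusted p from 0.0772 to 0.154, edgeR), and counts of miR-374b-5p are uncertain because its reads are also split into a joint entry with the near-identical miR-374c-5p.

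The sequences of these 5, printed to set their seeds beside that of miR-126a-3p, have bases 2 to 8 in capitals.
miR-19b-3p: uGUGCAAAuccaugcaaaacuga
miR-152-3p: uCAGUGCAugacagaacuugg
miR-125b-5p: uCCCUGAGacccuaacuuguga
miR-374b-5p: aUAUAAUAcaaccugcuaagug
miR-1983: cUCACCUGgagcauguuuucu

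None of the 5 has the seed of miR-126a-3p, and no 2 of them share one. In GRCm38.p6 they lie on chromosomes other than that of Mir126a: miR-19b-3p on 14 and at a further locus, miR-152-3p on 11, miR-125b-5p on 9 and at a further locus, miR-374b-5p on X, and miR-1983 on 13.

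**Figure D5:**
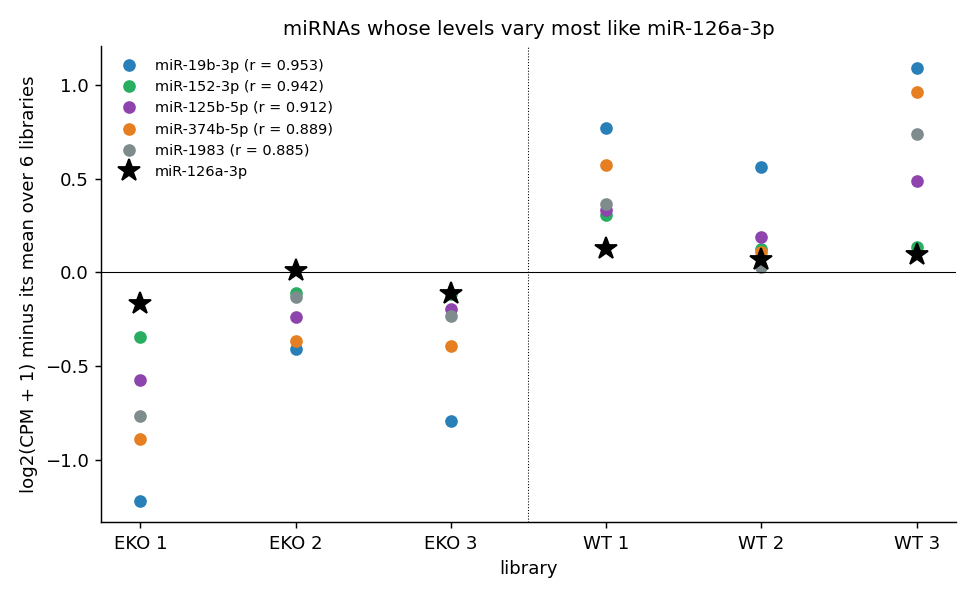
Log2(CPM + 1) of miR-126a-3p (star) and of the 5 miRNAs most like it, each minus its own mean over the 6 libraries, by library; the dotted line parts EKO from WT. The 5 were picked for their likeness to miR-126a-3p, so that the shared order of the libraries is given by the choice, and they span a wider range than it does.

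Other miRNAs of the cells that carry miR-126 were listed from textbook roles. None of their members passed the test, as 0 of all 575 miRNAs did (0.0%). The absence of calls given for each list below was fixed by that and says nothing about the list. Of 26 endothelial and angiogenic miRNAs 22 were tested, 5 with higher and 17 with lower values in EKO and 0 called. Their median log2 fold change was -0.60, against -0.16 over all tested miRNAs. The smallest p-values were those of miR-19b-3p, miR-221-3p, miR-23a-3p and miR-17-5p, each with an adjusted p of 0.0772 (edgeR). miR-221-3p, which restrains human endothelial cells through KIT, stood at 2943 ± 973 CPM in EKO, against 6604 ± 1892 CPM in WT. miR-23a-3p, of the miR-23, miR-27 and miR-24 clusters that act in vessel growth, stood at 416 ± 130 CPM in EKO and 869 ± 220 CPM in WT. The list summed to between 103949 and 110465 CPM in EKO and between 105423 and 122132 CPM in WT. In it miR-217-5p was not listed, and miR-31-5p, miR-130a-3p, miR-218-5p and miR-296-5p were at 0 in at least 1 library.

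Of 14 stem and progenitor miRNAs 12 were tested, 4 with higher and 8 with lower values in EKO and 0 called, with a median log2 fold change of -0.31. Of the 14, 4 are also among the endothelial and 3 among the megakaryocyte and platelet miRNAs. Those with the smallest p were miR-125a-5p, let-7e-5p of the same cluster, miR-125b-5p and miR-196a-5p, all with lower values in EKO. miR-125a-5p stood at 119 ± 59.1 CPM in EKO and 346 ± 90.7 CPM in WT, and let-7e-5p at 550 ± 91.0 and 905 ± 66.2 CPM. miR-196a-5p was scarce, at 0, 0 and 0.0270 CPM in EKO and 2.16, 1.26 and 3.01 CPM in WT. The list summed to between 49973 and 50860 CPM in EKO and between 44635 and 47211 CPM in WT. It holds miR-10a-5p, described below, which had higher values in EKO. Of 6 megakaryocyte and platelet miRNAs 5 were tested, 2 with higher and 3 with lower values and 0 called, with a median log2 fold change of -0.51; 4 of the 6 are also among the endothelial miRNAs. Among them miR-10a-5p, encoded in a Hox cluster, stood at 18700 ± 2641 CPM in EKO and 12690 ± 1588 CPM in WT (adjusted p = 0.0927, edgeR). miR-34a-5p, a target of p53, stood at 18.1 ± 1.88 CPM in EKO and 35.6 ± 9.71 CPM in WT (adjusted p = 0.104, edgeR). miR-28a-5p, part of whose reads are in a joint entry with miR-28c, stood at 8.81 ± 5.87 CPM in EKO and 14.2 ± 2.34 CPM in WT. miR-150-5p, a lymphoid and megakaryocyte miRNA, stood at 3.63 ± 1.56 CPM in EKO and 5.21 ± 0.69 CPM in WT. The list summed to between 15904 and 21098 CPM in EKO and between 10912 and 13726 CPM in WT. Nearly all of this was miR-10a-5p, so the sum does not speak for the other members. The part of endothelial, progenitor or megakaryocyte cells in the level of miR-126a-3p was not tested, and in such bulk RNA fewer cells of a type and less RNA per cell cannot be told apart.

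Lists of cells that do not typically carry miR-126 had no call either, again fixed by the lack of any call among all 575 miRNAs. Of 4 erythroid references 2 were tested, miR-451a, which had 5.92, 5.31 and 1.29 CPM in EKO libraries against 0, 0 and 0.587 CPM in WT libraries, and the joint entry of miR-486a-5p and miR-486b-5p at 125 ± 13.4 CPM in EKO, against 140 ± 17.2 CPM in WT. Of 5 lymphoid miRNAs 4 were tested (1 higher, 3 lower), of 9 stromal 6 (2 higher, 4 lower) and of 7 epithelial 6 (4 higher, 2 lower). Their summed levels were 537 to 649, 3859 to 4077 and 116 to 183 CPM in EKO, and 728 to 846, 4006 to 4140 and 147 to 159 CPM in WT. The lymphoid sums, most of them miR-181b-5p and miR-181a-5p, did not overlap between the genotypes, with EKO below WT. The macrophage sums did not overlap either, also with EKO below. The stem and progenitor and the megakaryocyte sums did not overlap, with EKO above. Both lists hold miR-10a-5p, at 18700 CPM in EKO and 12690 CPM in WT, so these are not separate results. Of the 12 stem and progenitor miRNAs tested 8 had lower values in EKO, so their sum does not speak for most members. The endothelial, stromal and epithelial sums overlapped. Among single miRNAs tested, 17.7% had EKO below WT without overlap on plain CPM, and 11.8% had EKO above. No such share was worked out for sums of several miRNAs.

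Like miR-126a, many miRNAs lie in introns of protein-coding genes. Of 20 such arms with a known host, some of them the lesser arm of their hairpin here, 19 were tested, 5 with higher and 14 with lower values in EKO and 0 called, with a median log2 fold change of -0.57. The smallest p-values were those of miR-151-3p within Ptk2, miR-93-5p within Mcm7, miR-26b-5p within Ctdsp1 and miR-103-3p within Pank3. An arm named miR-103-2-5p was also listed, so reads of miR-103-3p may come from a further locus and cannot be assigned to Pank3 alone. miR-151-3p stood at 18510 ± 4953 CPM in EKO, against 8770 ± 1663 CPM in WT, the only 1 of the 4 with higher values in EKO. miR-93-5p stood at 404 ± 69.4 CPM in EKO and 693 ± 149 CPM in WT, and miR-26b-5p at 746 ± 247 CPM in EKO and 1469 ± 322 CPM in WT. Their adjusted p lay between 0.0772 and 0.0789 (edgeR), against 0.749 for miR-126a-3p. Host transcripts are not measured by these libraries, so the level of Egfl7 is not known here.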

How the data were processed

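The authors deposited 1 table per library. Per the file headers, it holds the number of distinct reads, the total read count, and an expected count in which a read matching several references is divided among them. The build was mm9 per the submitters' processing notes; no source used here gives the aligner or counter (not given in the sources). Per the labels, total RNA came from RNeasy columns, which can lose small RNA, and libraries from an NEB small RNA kit. The deposited expected counts were rounded to whole numbers. Stem-loop references (0.00127% to 0.00161% of reads) were left out, none of them of miR-126, and the deposited barcode count summed to 0.

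edgeR 4.0.16 in R 4.3.3 was fitted on genotype alone (TMM, filterByExpr, quasi-likelihood test, Benjamini-Hochberg, threshold 0.05). A standard error is the log2 fold change divided by the square root of F. Arm ratios used limma 3.58.1, and single values exact permutation tests (scipy 1.17.1). Alternatives were DESeq2 1.42.0, limma-voom, other scalings, filters and pseudocounts, total read counts, a replicate block, and each library left out. The scripts were tested on simulated data. RNAfold was version 2.7.2.

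The members and lists were chosen with earlier results of these data known. Named are all members, the 5 miRNAs most like miR-126a-3p, its 3 neighbours by level on each side, in the lists described by member at most the 4 of smallest p, and the 3 arm pairs with the smallest p. No list of most-like miRNAs is given for miR-126a-5p, which had reads in 1 library. miR-467c, miR-542, the arms of miR-511 and the names with 1 arm listed were chosen after their values were seen.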

Additional observations from a re-analysis of the deposited data

How the results depend on the processing

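The log2 fold change of miR-126a-3p was negative and uncalled in all 17 alternatives, from -0.19 to -0.08, with adjusted p from 0.577 to 0.916. Relative to the median of all tested miRNAs it lay between -0.10 and 0.19. The number of miRNAs called was 0 of 575 with edgeR and moved to 92 of 575 with DESeq2 and 32 of 575 with limma-voom. Other filters also changed the number tested. Calls were 52 of 911 with no low-count filter and 59 of 251 with a mean of at least 10 CPM. With at least 10 reads in every library they were 43 of 370. Leaving out each library gave 0 to 45, the latter of 634 without EKO replicate 3. The arm ratio difference reversed to -0.65 with 0.1 CPM added and ran from -0.089 without WT replicate 3 to 0.17 without WT replicate 1, so that its sign is not settled. Calls among arm pairs moved from 0 of 98 to 8 of 98 with 10 CPM added and to 5 of 53 with each arm averaging at least 10 CPM. They ran from 0 to 11 without each library, the latter of 96 without EKO replicate 3. The summed arms differed by -12.1 to -7.86 CPM and the distinct sequences by -17.5 to -12.0 without each library; the differences in distinct sequences, and the block fits below with a second change, were added after seeing the data.

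No pairing by replicate number was seen: libraries of like number in both genotypes had deviations whose correlations were -0.10, -0.04 and -0.02. With the replicate block 62 of 575 miRNAs were called, and 95 of 251 with the block and a mean of at least 10 CPM. Under the block miR-126a-3p had a log2 fold change of -0.16 (adjusted p = 0.728, edgeR) and no arm pair was called. The cause of these moves was not tested. For miR-126a-5p the main test gave no value; with no filter its adjusted p was 0.407 (edgeR). Depth limits the 5p and antisense arms to bounds.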
